A study of Mus musculus with 20 samples.

Results

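The 10 genes described here encode the receptors Tlr1, Tlr2, Tlr4, Tlr6, Tlr7, Tlr8, Tlr9 and Tlr13, the co-receptor Cd14 and the adaptor Myd88. They were picked by symbol, under a rule that uses no measured value but with earlier results of these data known, and all 10 are among the 14456 genes listed in the normalised count table. The samples were bone marrow-derived macrophages (BMDM), which are macrophages grown from the bone marrow of male C57BL/6J mice aged 8 to 12 weeks in 25 ng/ml M-CSF for 6 days. Of the glucose experiment there were 4 high glucose libraries, from BMDM given 25 mM glucose over 24 h, and 4 normal glucose libraries, from BMDM given 5.5 mM glucose and, as an osmotic match, 19.5 mM mannitol. In the exosome experiment, 4 libraries each came from naive BMDM that were treated for 24 h with PBS, with BMDM-NG-exo or with BMDM-HG-exo. BMDM-NG-exo and BMDM-HG-exo are small vesicles collected from BMDM cultured in normal and in high glucose, added at 2000000000 particles per ml. The titles of the PBS libraries call these cells unstimulated. A library is 1 RNA sample, exosome preparations differed between the libraries of a group, and the labels do not say whether the glucose libraries came from different mice, so p-values measure the spread between these libraries, which may be technical.

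Toll-like receptors recognise molecules of microbes and of damaged cells. Tlr4 binds bacterial lipopolysaccharide, which Cd14 hands to it, and Tlr2 binds lipopeptides as a pair with Tlr1 or Tlr6. These receptors sit at the cell surface. Tlr7 (single-stranded RNA), Tlr8, Tlr9 (DNA with unmethylated CpG) and Tlr13 (bacterial ribosomal RNA) sit in endosomes. Nucleic acids arrive there after uptake, and receptors are cut there by proteases. All 8 receptors signal through the adaptor Myd88 to NF-kappaB and the cytokine genes, and Tlr4 can also signal through the adaptor Ticam1 (TRIF) to interferon genes. Macrophages are known for carrying many of these receptors.

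In the GRCm38 build the genes lie apart except for the neighbours Tlr1 and Tlr6 on chromosome 5 and Tlr7 and Tlr8 on chromosome X. Tlr1 is at chr5:64924679-64933563 (minus strand, 3346 exon bases), and Tlr6 is at chr5:64952031-64960097 (minus strand, 3727 exon bases), 18467 bases away. Tlr8 is at chrX:167242696-167264329 (minus strand, 3586 exon bases), and Tlr7 is at chrX:167304929-167330558 (minus strand, 4082 exon bases), with 40599 bases between them. Tlr2 is at chr3:83836272-83841767 (minus strand, 3014 exon bases), Tlr4 at chr4:66827584-66930284 (plus strand, 5556 exon bases) and Tlr9 at chr9:106222598-106226883 (plus strand, 3478 exon bases). Tlr13 is at chrX:106143204-106160493 (plus strand, 4304 exon bases) and Myd88 at chr9:119335934-119341411 (minus strand, 2576 exon bases). Every gene of the 10 is annotated as protein coding. Myd88 overlaps Acaa1a on the other strand, which the strand-specific counting separates, and Slc22a14 on its own strand, which is not listed in the table. Between 405 (Tlr6) and 13706 (Tlr7) reads stood behind each value of a member in a library. Tlr1 and Tlr6 are near copies over part of their length: 454 of the 3332 different 50-base stretches of Tlr1 transcripts (13.6%) also occur in Tlr6 transcripts, and so do 12.3% of those of Tlr6 in Tlr1. Their values are therefore less certain than those of Tlr2, Cd14, Myd88, Tlr7, Tlr8, Tlr9 and Tlr13, which shared no such stretch with any other gene.

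RefSeq windows around the transcription start, from 250 bases before to 50 after it (GRCm38.p6), were on hand for 7 of the members. The sequences of Tlr2 (chr3:83841559-83841858, minus strand), Tlr9 (chr9:106222348-106222647, plus strand), Myd88 (chr9:119339969-119340268, minus strand) and Tlr13 (chrX:106143025-106143324, plus strand) are shown because the first 3 genes changed in both experiments and Tlr13 in neither. They are written 5′ to 3′ on the strand of the gene, and capitals mark matches to 6 motifs searched on both strands.
Tlr2: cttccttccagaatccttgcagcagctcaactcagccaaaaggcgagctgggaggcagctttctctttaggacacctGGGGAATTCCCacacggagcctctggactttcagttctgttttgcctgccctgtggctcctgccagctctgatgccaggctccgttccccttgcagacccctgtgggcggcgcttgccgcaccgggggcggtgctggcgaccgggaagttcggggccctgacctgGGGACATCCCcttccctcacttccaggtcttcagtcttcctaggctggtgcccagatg
Tlr9: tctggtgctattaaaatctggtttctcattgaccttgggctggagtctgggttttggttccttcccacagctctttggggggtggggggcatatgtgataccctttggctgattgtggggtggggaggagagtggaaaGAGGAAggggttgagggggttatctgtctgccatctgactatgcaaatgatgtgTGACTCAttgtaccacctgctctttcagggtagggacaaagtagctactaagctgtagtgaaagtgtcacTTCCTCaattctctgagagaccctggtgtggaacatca
Myd88: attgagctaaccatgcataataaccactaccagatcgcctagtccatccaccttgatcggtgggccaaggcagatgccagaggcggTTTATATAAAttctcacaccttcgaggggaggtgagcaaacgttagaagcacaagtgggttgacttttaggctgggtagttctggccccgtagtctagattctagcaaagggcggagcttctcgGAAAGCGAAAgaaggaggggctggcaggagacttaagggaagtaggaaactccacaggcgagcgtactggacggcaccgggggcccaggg
Tlr13: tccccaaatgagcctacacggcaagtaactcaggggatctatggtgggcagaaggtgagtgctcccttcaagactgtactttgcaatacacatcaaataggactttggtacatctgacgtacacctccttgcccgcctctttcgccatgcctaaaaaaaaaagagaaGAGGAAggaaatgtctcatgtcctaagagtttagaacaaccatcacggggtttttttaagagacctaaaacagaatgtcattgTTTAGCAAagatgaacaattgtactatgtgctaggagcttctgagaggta

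The motifs were GAGGAA (the core bound by PU.1), the interferon regulatory factor motif (GAAA, any 2 bases and GAAA again), the NF-kappaB consensus, TGANTCA (AP-1), TTGCNNAA (C/EBP) and TATAAA. The Tlr2 window held the NF-kappaB consensus at bases 78 to 88, where matches overlap, and at bases 243 to 252, and no other motif. This consensus occurred in 8.46% of 32851 such windows of all genes and in no other member window searched. No window of Tlr4, Tlr7 or Cd14 was searched. The Tlr9 window held GAGGAA at bases 139 to 144 and 263 to 268 (28.3% of all windows hold it) and TGANTCA at bases 193 to 199 (7.81%). In the Myd88 window, the interferon regulatory factor motif matched at bases 211 to 220 (3.44% of all windows) and TATAAA, in overlapping matches, at bases 87 to 96 (13.6%). This window lies inside the Myd88 gene as placed above, whose 5′ end is at position 119341411. The Tlr13 window held GAGGAA at bases 168 to 173 and TTGCNNAA at bases 251 to 258 (10.8%). Tlr8 had GAGGAA, TTGCNNAA and TATAAA, Tlr6 had the interferon regulatory factor motif and TTGCNNAA at 1 of its starts and TATAAA at the other, and Tlr1 had GAGGAA at 1 of its 2 starts. The Tlr6 window with the interferon regulatory factor motif (chr5:64959117-64959416) also lies inside its gene. So does the Tlr1 window without a match (chr5:64932650-64932949). A match describes the letters of the window, and binding was not measured.

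Depth ran from 34016445 to 56310712 reads per library, with 34016445 to 44693640 in PBS and 40751064 to 56310712 in BMDM-NG-exo. The Pearson r across genes between the libraries of a group was 0.9777 to 0.9878. The label was checked against its markers: the 6 macrophage markers were listed, with a summed normalised count of 612900 to 861000 per library. Listed markers of neutrophils, fibroblasts and T cells summed to at most 145.1, 235.1 and 117.4, and none of the B cell, dendritic cell or mast cell markers was listed. The macrophage markers moved too. In high glucose Lyz2 (0.42 log2 fold change), Csf1r (0.35) and Adgre1 (0.10) rose while Mertk (-0.40) and Cd68 (-0.15) fell. Against PBS, Fcgr1 fell with BMDM-NG-exo (-0.41) and BMDM-HG-exo (-0.60), as did Csf1r (-0.22 and -0.26) and Adgre1 (-0.16 and -0.21). Cd68 (0.10 and 0.08), Mertk (0.09 and 0.04) and Lyz2 (-0.09 and -0.09) were not called there. Their part in the results was not tested, and in bulk libraries fewer cells of a kind and less RNA per cell cannot be told apart.

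Compared per length of exon, the endosomal receptors Tlr7, Tlr8 and Tlr13 were the most abundant of the 8 receptors in every group, while the endosomal Tlr9 ranked below the surface receptors Tlr2 and Tlr4. Across all 20 libraries the mean level of Cd14 was 4794 normalised counts per kb, above 98.6% of listed genes. Tlr7 (2564 per kb), Tlr8 (2403 per kb) and Tlr13 (2322 per kb) followed, each above at least 96.4% of genes. Cd14 is at chr18:36725067-36726798 (minus strand, 1732 exon bases) in GRCm38. The adaptor Myd88 had 1181 per kb. Tlr2 (991 per kb) and Tlr4 (909.7 per kb) led the surface receptors, Tlr9 had 618 per kb, and Tlr1 (309 per kb) and Tlr6 (157 per kb) were lowest. In PBS-treated cells the levels per kb were 2468 ± 57.9 for Tlr7, 2394 ± 108 for Tlr8 and 2288 ± 47.6 for Tlr13 (mean ± SD, n = 4), and the ranges of Tlr7 and Tlr8 and of Tlr8 and Tlr13 overlapped. The ranges of Tlr2 (1135 ± 53.5), Tlr4 (917 ± 33.2), Tlr9 (679 ± 52.9), Tlr1 (342 ± 15.9) and Tlr6 (155 ± 18.3) were apart in this group. Tlr2 and Tlr4 overlapped in normal glucose (878 ± 50.3 and 819 ± 34.1 per kb) and with BMDM-NG-exo (922 ± 46.6 and 892 ± 28.2 per kb). With BMDM-HG-exo their order per kb turned, with Tlr4 at 926 ± 26.5 and Tlr2 at 838 ± 35.1 per kb and no overlap. This order rests on the exon lengths used (5556 bases for Tlr4 and 3014 for Tlr2). In reads, Tlr2 stayed below Tlr4 in every group, at 0.462 to 0.710 reads per read.

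**Figure D1:**
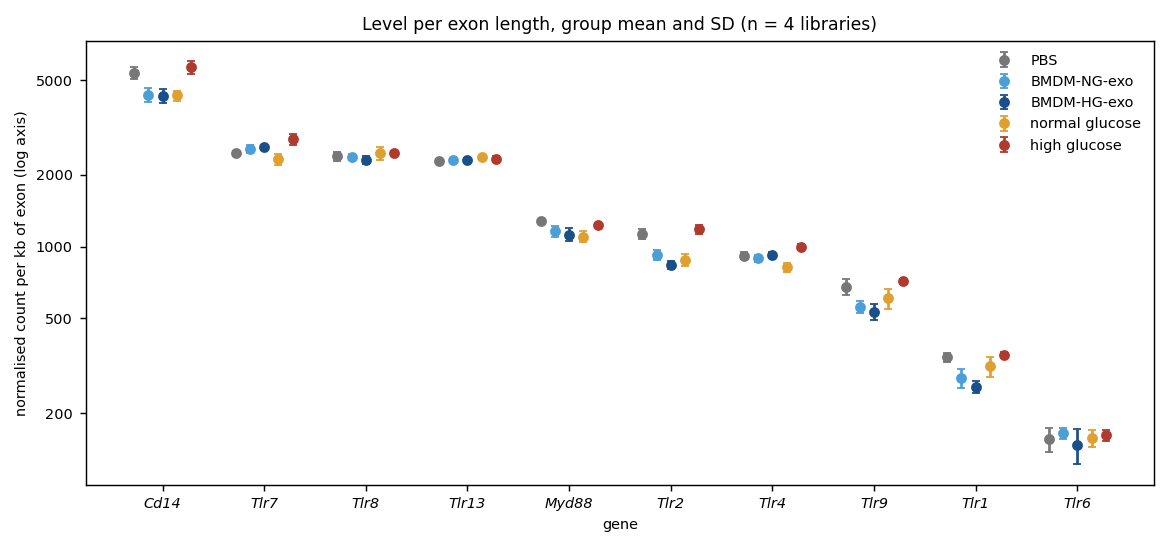
Normalised count per kb of exon (log axis) of each member in the 5 groups, as the mean and SD of 4 libraries. Cd14 is highest, Tlr7, Tlr8 and Tlr13 lie close together above the other receptors, and Tlr1 and Tlr6 are lowest.

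With high glucose, both surface and endosomal receptors rose. Of the 10 genes, 6 rose and none fell: the surface receptors Tlr2 and Tlr4, the co-receptor Cd14, the endosomal receptors Tlr7 and Tlr9 and the adaptor Myd88. The fold changes ran from 1.12 for Myd88 to 1.35 for Tlr2. Of all 14425 genes tested, 13.3% were called in either direction and 7.74% were called higher (1116 genes higher and 798 lower, or 789 and 872 with quantile normalization), at an adjusted p under 0.05 by limma with Benjamini-Hochberg adjustment. In these 6 each high glucose library lay above each normal glucose library, as in 9.18% of all genes. The median log2 fold change was 0.20 over the members, 0.22 over the 4 surface receptors, 0.12 over the 4 endosomal receptors and -0.0031 over all genes.

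Tlr2 had normalised counts of 2442, 2731, 2628 and 2787 in normal glucose and of 3348, 3605, 3680.2 and 3635 in high glucose. The lowest high glucose library lay above the highest normal glucose library, and the log2 fold change was 0.43 (SE 0.05, adjusted p = 4.16e-08). For Cd14 the normal glucose libraries held 7991, 7427, 7286 and 7179 and the high glucose libraries 9586, 9055, 10387 and 10237 normalised counts. Again the groups did not overlap, with a log2 fold change of 0.39 (SE 0.04, adjusted p = 1.19e-08). Tlr4, the receptor that Cd14 serves, had 4329.8, 4762, 4473 and 4641 in normal and 5413, 5380.3, 5735 and 5574 in high glucose. It was higher in each high glucose library than in any of the other group, by 0.28 (SE 0.04, adjusted p = 6.52e-06) on the log2 scale.

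Among the endosomal receptors, Tlr7 stood at 9523, 9725, 8733 and 9981 in normal glucose and at 10744, 12287, 11316 and 11748 in high glucose. Its groups were apart, and the log2 fold change was 0.28 (SE 0.04, adjusted p = 5.92e-06). The neighbour Tlr8, with 8103, 9262, 8709 and 9317 in normal and 8627, 8932, 9036 and 8764 in high glucose, overlapped throughout, with a log2 fold change of 0.00 (95% interval -0.08 to 0.08) whose sign turned with other scalings. Tlr9 had 2304, 1827, 2184 and 2124 in normal and 2565, 2407, 2447 and 2510.5 in high glucose. Normal glucose library 3 was lowest, the groups did not overlap, and the log2 fold change was 0.24 (SE 0.06, adjusted p = 0.00352). Tlr13 ranged from 10059 to 10490.3 in normal and from 9629 to 10298 in high glucose, with a log2 fold change of -0.04 (95% interval -0.11 to 0.04). Myd88 had 2856, 2677, 3040.4 and 2781 in normal and 3121, 3242, 3113 and 3196 in high glucose, apart by a small margin, with a log2 fold change of 0.16 (SE 0.05, adjusted p = 0.0212).

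Neither Tlr1 nor Tlr6, which pair with Tlr2, was called. Tlr1 had 952, 1007, 1057 and 1192 in normal and 1165, 1135, 1220.3 and 1183 in high glucose, where normal glucose library 6 lay within the high glucose range. Its log2 fold change was 0.16 (SE 0.07, adjusted p = 0.122). Tlr6 ranged from 514 to 624 and from 568 to 645, with a log2 fold change of 0.05 and a 95% interval of -0.13 to 0.23. The calls of Tlr2, Tlr4 and Cd14 held in each of the 8 other settings and without each library in turn. Those of Tlr7, Tlr9 and Myd88 were lost without the trend of the variance on the mean (adjusted p = 0.0518, 0.121 and 0.119 by limma). With the replicate number as a block, Tlr9 and Myd88 were lost (adjusted p = 0.125 and 0.199 by limma). The labels do not state that these numbers pair the glucose libraries. Myd88 was also lost with quantile normalization (adjusted p = 0.101 by limma) and when normal glucose library 3 or 6 or high glucose library 2 or 6 was left out (adjusted p = 0.0522 to 0.0754 by limma), while Tlr1 was called without normal glucose library 6 (adjusted p = 0.032 by limma).

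**Figure D2:**
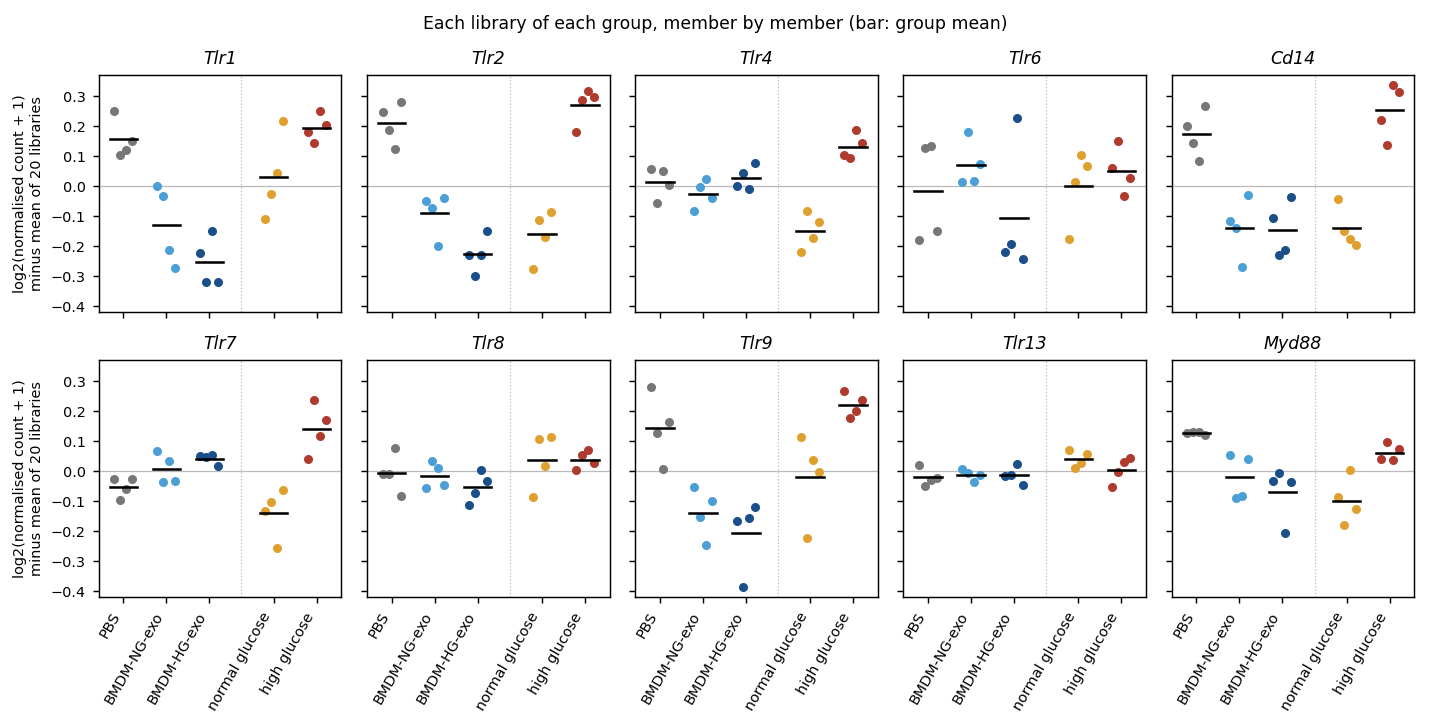
Each panel shows 1 member, with log2(normalised count + 1) of each library minus the mean of the 20 libraries on the y axis and the 5 groups on the x axis; points are libraries and bars group means. Tlr1, Tlr2, Cd14 and Tlr9 sit lower in both exosome groups than in PBS, Tlr4 and Tlr7 differ mainly between the glucose groups, and Tlr8 and Tlr13 stay near 0 throughout.

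Against PBS, the surface receptors Tlr1 and Tlr2, the co-receptor Cd14 and the endosomal receptor Tlr9 were lower with BMDM-NG-exo, and these 4 and Myd88 were lower with BMDM-HG-exo. No member was called higher. To be called here, a gene needed an adjusted p under 0.05 and a log2 fold change beyond 0.15 either way. Of all 14413 genes tested, 3% were called in BMDM-NG-exo against PBS (2.11% lower) and 4.84% in BMDM-HG-exo against PBS (3.08% lower). Tlr1, Tlr2, Cd14, Tlr9 and Myd88 lay below PBS in each library of either exosome group, as did 4.63% of all genes with BMDM-NG-exo and 5.59% with BMDM-HG-exo. These comparisons share the PBS libraries and are given side by side.

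For Tlr2 the PBS libraries held 3504, 3366, 3220.3 and 3588 normalised counts, the BMDM-NG-exo libraries 2855, 2813, 2573 and 2878, and the BMDM-HG-exo libraries 2519, 2405, 2520.1 and 2663. Each exosome library lay below each PBS library, with log2 fold changes of -0.30 (SE 0.05, adjusted p = 0.000197) for BMDM-NG-exo and -0.44 (SE 0.05, adjusted p = 2.05e-07) for BMDM-HG-exo. Its partner Tlr1 had 1222, 1103, 1116 and 1140.3 with PBS, 1026, 1004, 886 and 850.0 with BMDM-NG-exo and 879.5, 823, 925 and 823 with BMDM-HG-exo. Again no exosome library reached the PBS range, and the log2 fold changes were -0.29 (SE 0.08, adjusted p = 0.0223) and -0.41 (SE 0.08, adjusted p = 0.000304). Cd14 had 9458, 9085, 8722 and 9911 with PBS, 7602, 7473, 6827 and 8061 with BMDM-NG-exo and 7646, 7024, 7098 and 8022 with BMDM-HG-exo. Both exosome groups were below PBS without overlap, by log2 fold changes of -0.31 (SE 0.05, adjusted p = 3.18e-05) and -0.32 (SE 0.05, adjusted p = 1.04e-05), and they overlapped each other.

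The endosomal receptor that fell was Tlr9. It had 2587, 2329, 2141 and 2387 with PBS, 2055, 1917, 1796 and 1988 with BMDM-NG-exo and 1897, 1632, 1911 and 1962 with BMDM-HG-exo. PBS library 3 was the lowest of its group and still above both exosome groups, and the log2 fold changes were -0.28 (SE 0.06, adjusted p = 0.00491) and -0.35 (SE 0.06, adjusted p = 0.000203). Myd88 had 3317, 3321, 3318 and 3298 with PBS, 3148, 2850.0, 2862 and 3119 with BMDM-NG-exo and 2969, 3021, 2629 and 2962 with BMDM-HG-exo. Its SD with PBS was 0.32% of the mean, against 1.96% to 6.20% in the other groups. A range this narrow in 4 libraries may not hold in others. The exosome libraries were all lower than PBS. The log2 fold change passed the test for BMDM-HG-exo at -0.20 (SE 0.05, adjusted p = 0.0116) and not for BMDM-NG-exo at -0.15 (SE 0.05, adjusted p = 0.117).

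The other 5 members were not called in either comparison. Tlr4 had 5249, 4849, 5222 and 5055 with PBS, 4766, 5033, 5126 and 4902 with BMDM-NG-exo and 5043, 5204, 5007 and 5324 with BMDM-HG-exo. The 3 groups overlapped, and the 95% intervals of the log2 fold changes were -0.12 to 0.04 and -0.07 to 0.10. Tlr7 had 10254, 9760.1, 10021 and 10258 with PBS, 10926, 10171, 10691 and 10193 with BMDM-NG-exo and 10799, 10777, 10834 and 10563 with BMDM-HG-exo. Each BMDM-HG-exo library of Tlr7 lay above each PBS library, which was so for 4.41% of all genes, but the log2 fold change of 0.09 (SE 0.03, adjusted p = 0.13) did not pass. The intervals of Tlr8 were -0.09 to 0.07 for BMDM-NG-exo and -0.13 to 0.03 for BMDM-HG-exo, and those of Tlr13 were -0.06 to 0.08 and -0.06 to 0.08. Tlr6 had the widest intervals, -0.12 to 0.30 and -0.30 to 0.12.

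Without the trend, Tlr2 kept its call in BMDM-NG-exo against PBS, while Tlr1, Cd14 and Tlr9 lost theirs (adjusted p = 0.116, 0.0751 and 0.156 by limma), and in BMDM-HG-exo against PBS only Myd88 was lost (adjusted p = 0.1 by limma). Tlr1 also lost its call in BMDM-NG-exo against PBS without PBS library 1 or 4 or BMDM-NG-exo library 3 or 4 (adjusted p = 0.0526 to 0.106 by limma), and Myd88 in BMDM-HG-exo against PBS without BMDM-HG-exo library 3 (adjusted p = 0.0971 by limma).

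Whether the glucose of the donor culture mattered was asked by setting BMDM-HG-exo against BMDM-NG-exo. None of the 10 members was called by limma, edgeR or DESeq2, and 0.0139% of all genes were called by limma (2 genes, both lower, or 1 higher and 1 lower with quantile normalization, and 11 higher and 11 lower with the date in the labels as a block). At an unadjusted p under 0.05 there was 1 member, Tlr2, against 6.54% of all genes. Its log2 fold change of -0.14 (SE 0.05, adjusted p = 0.621) had a 95% interval of -0.24 to -0.03, and the highest BMDM-HG-exo library overlapped the lowest BMDM-NG-exo library. Tlr2 was lower with BMDM-HG-exo in 4 of 4 pairs of libraries of the same date, as were 8.05% of all genes, and with the date as a block its adjusted p was 0.369 by limma. Cd14 differed least among the surface proteins, at -0.01 with an interval of -0.10 to 0.09. The intervals were -0.28 to 0.03 for Tlr1, -0.20 to 0.06 for Tlr9, -0.15 to 0.05 for Myd88, -0.03 to 0.14 for Tlr4 and -0.04 to 0.10 for Tlr7.

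With BMDM-HG-exo against both control groups combined, no member was called by limma or by edgeR, while DESeq2 called Tlr2 (adjusted p = 0.0115). By limma 0.201% of all genes were called (10 higher and 19 lower, or 9 and 10 with quantile normalization). At an unadjusted p under 0.05 there were 5 members, Tlr1, Tlr2, Tlr9, Cd14 and Myd88, all lower, against 10.5% of all genes. The log2 fold changes were -0.29 (SE 0.07, adjusted p = 0.0628) for Tlr2 and -0.27 (SE 0.08, adjusted p = 0.16) for Tlr1. Without BMDM-NG-exo library 1, 2 or 3, Tlr2 was called (adjusted p = 0.00493 to 0.0429 by limma), and without library 3 Tlr1 was called too (adjusted p = 0.0451 by limma).

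**Figure D3:**
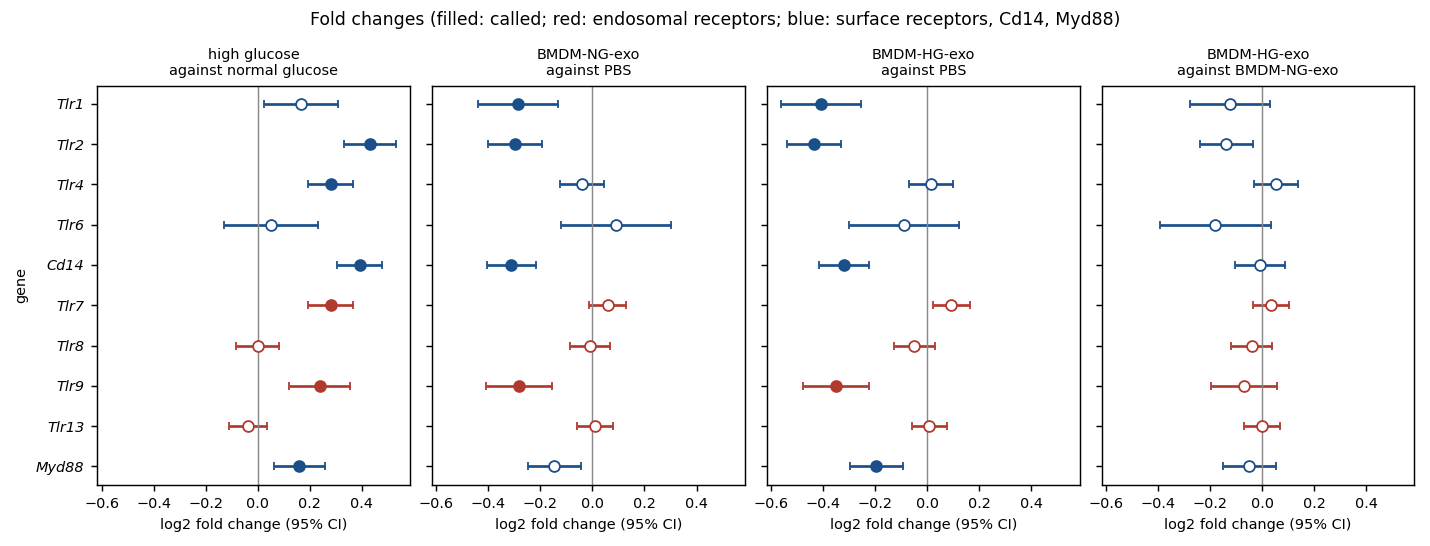
Log2 fold change with its 95% confidence interval (x axis) of each member (y axis) in 4 comparisons, with endosomal receptors in red, the others in blue, and filled points for called members. Tlr2, Cd14 and Tlr9 are called in the glucose panel and in both panels against PBS, and none is called between the exosome groups.

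The share of the endosomal receptors in the summed level per kb of the 8 receptors was formed within each library, so that no size factor enters. It was 75.4, 75.5, 75.8 and 75.0% with PBS, 77.7, 77.1, 78.0 and 77.3% with BMDM-NG-exo and 78.3, 78.4, 78.4 and 77.7% with BMDM-HG-exo. Each exosome library was above each PBS library, and the exosome groups overlapped, although the share was higher with BMDM-HG-exo in 4 of 4 pairs of the same date. Of all genes, 7.77% were higher in every such pair. In normal glucose the share was 79.3, 77.9, 77.8 and 78.0%, and in high glucose 75.5, 76.1, 75.1 and 75.6%. The high glucose libraries all lay lower. A higher share is not a higher level of endosomal receptors. Against PBS none of these was called higher, while Tlr1, Tlr2 and Tlr9 were called lower. In high glucose, where the share was lower, Tlr7 and Tlr9 were called higher. These shares describe the members and were not tested.

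Ratios of reads within a library set members of the same compartment against each other, and are likewise descriptions of pairs chosen after their values were seen. There were 0.617 to 0.710 reads of Tlr2 per read of Tlr4 with PBS, 0.502 to 0.599 with BMDM-NG-exo and 0.462 to 0.503 with BMDM-HG-exo. The last 2 ranges overlapped in a narrow band and both lay below PBS. This ratio covered 0.564 to 0.601 in normal and 0.618 to 0.670 in high glucose. Tlr9 had 0.219 to 0.255 reads per read of Tlr13 with PBS, 0.184 to 0.205 with BMDM-NG-exo, 0.165 to 0.203 with BMDM-HG-exo, 0.182 to 0.220 in normal glucose and 0.240 to 0.266 in high glucose. Here too the exosome groups were below PBS and high glucose was above normal glucose without overlap. For the neighbours on the X chromosome, Tlr7 per read of Tlr8 covered 1.00 to 1.18 in normal glucose and 1.25 to 1.38 in high glucose. This ratio was also higher with BMDM-HG-exo (1.25 to 1.36) than with BMDM-NG-exo (1.16 to 1.32) in 4 of 4 pairs of the same date, with overlapping groups. In such pairs, Tlr2 per read of Tlr4 was higher with BMDM-HG-exo in 1 of 4 and Tlr9 per read of Tlr13 in 2 of 4. For Tlr1 per read of Tlr6, PBS (1.738 to 2.383) overlapped BMDM-NG-exo (1.39 to 1.746) and BMDM-HG-exo (1.357 to 1.762). The glucose groups overlapped too (1.693 to 1.957 and 1.76 to 2.147). Tlr2 per read of Tlr1 overlapped between PBS (2.867 to 3.146), BMDM-NG-exo (2.783 to 3.386) and BMDM-HG-exo (2.725 to 3.236). It covered 2.338 to 2.712 in normal and 2.875 to 3.175 in high glucose.

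**Figure D4:**
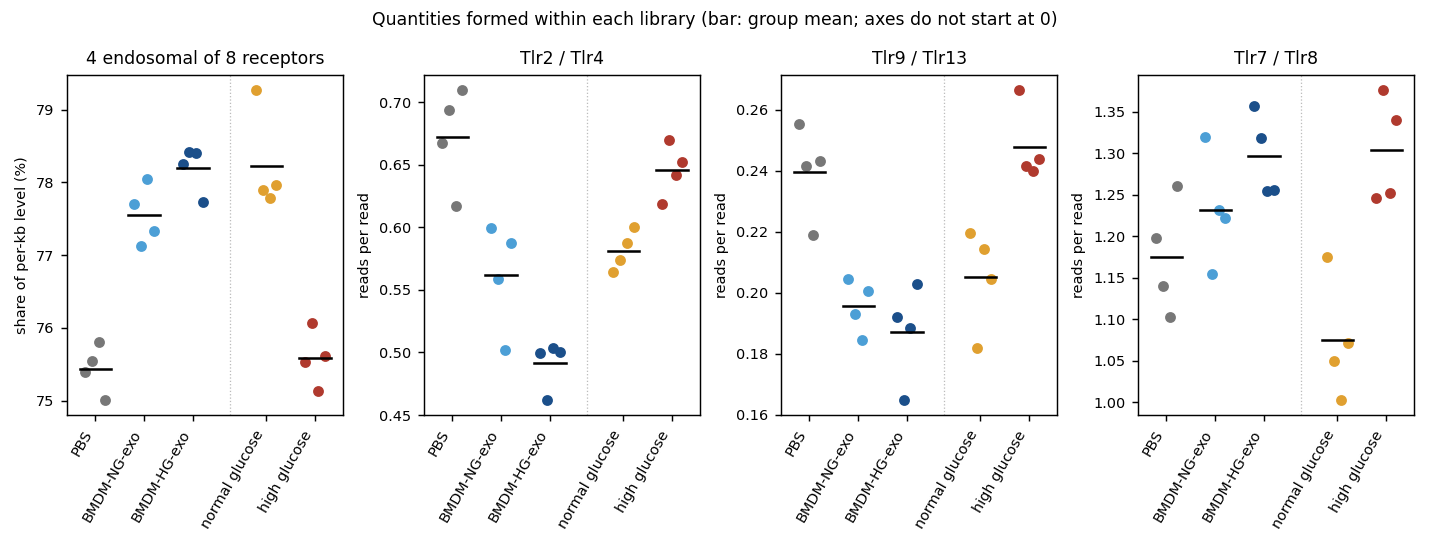
Percent of the summed level per kb that belongs to the 4 endosomal receptors, and reads of Tlr2 per read of Tlr4, of Tlr9 per read of Tlr13 and of Tlr7 per read of Tlr8, for each library (points) in the 5 groups with the group means (bars). The endosomal share lies between 75.01% and 76.07% in PBS and high glucose, and between 77.12% and 79.27% in the other 3 groups.

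Over the 5 groups, the level of Tlr2 was ordered from high glucose (3567 ± 149 normalised counts, mean ± SD, n = 4) and PBS (3419 ± 161) to BMDM-NG-exo (2780.0 ± 140.4), normal glucose (2647 ± 152) and BMDM-HG-exo (2527 ± 106). Only PBS and BMDM-NG-exo were neighbours without overlap. Cd14 had the same order, from 9816 ± 615 to 7447 ± 473, with the same gap. Tlr1 ran from 1176 ± 35.6 in high glucose over 1146 ± 53.3 (PBS), 1052 ± 103 (normal glucose) and 941 ± 86.7 (BMDM-NG-exo) to 863 ± 49.2 (BMDM-HG-exo), and Tlr9 from 2482 ± 69.3 to 1851 ± 148 in that order. Neighbouring groups overlapped for both. Myd88 was highest with PBS (3313 ± 10.6), apart from high glucose (3168 ± 62.0), and lowest in normal glucose (2838 ± 153). Tlr4 was highest in high glucose (5526 ± 163) and lowest in normal glucose (4551 ± 189.6), each apart from the exosome experiment between them. Tlr7 had the same ends, 11524 ± 654 and 9491 ± 538, with overlaps to its neighbours. Tlr8 (means of 8294 to 8848), Tlr13 (9846 to 10284) and Tlr6 (545 to 612) overlapped between all neighbours. Levels were not tested across the experiments.

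The partners of these receptors were described with 9 lists of 111 genes written by hand, of which 103 were listed in the table. Values in brackets are log2 fold changes. Of all genes, 7.74% were called higher in high glucose, and 13.3% in either direction. In high glucose, none of the 9 surface accessory genes (partners such as Ly96 and Cd180) and none of the 5 other adaptors was called, with Itgb2 (0.09, adjusted p = 0.0545 by limma) and Pik3ap1 (0.10, adjusted p = 0.0981 by limma) nearest to it. Of the 19 genes of endosomal trafficking and cleavage, 4 rose and 4 fell, with the largest changes in Ctsk (0.93, SE 0.26), Pld4 (0.27, SE 0.04), Dnase2a (0.22, SE 0.05) and Ctss (0.21, SE 0.03). The genes that fell were Ctsb (-0.18, SE 0.03), Rab7b (-0.17, SE 0.04), Slc15a3 (-0.15, SE 0.04) and Pld3 (-0.14, SE 0.04), all smaller changes and named after their values were seen. Cathepsins, which are proteases of the endosome, were thus found in both directions (Ctsk and Ctss higher, Ctsb lower), and so were Pld4 and Pld3, exonucleases of that compartment. Among 24 kinases, ligases and transcription factors, 5 rose, led by Irf7 (0.60, SE 0.09), Traf3 (0.27, SE 0.05), Ikbkg (0.26, SE 0.05) and Irf5 (0.24, SE 0.03). Irf7 and Irf5 are interferon regulatory factors used by endosomal receptors. Of 15 inhibitors 8 rose, led by Tnip3 (0.41, SE 0.05), Nfkbia (0.40, SE 0.05), Rnf19b (0.31, SE 0.04) and Dok3 (0.30, SE 0.06), where Nfkbia is the inhibitor that holds NF-kappaB in the cytoplasm.

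The response genes had larger median changes than the receptors. Their counts stand beside 7.74% of all genes called higher in high glucose and 13.3% called in either direction. Of the 11 MyD88-dependent response genes tested, 4 rose in high glucose, namely Tnf (0.74, SE 0.11), Nfkbiz (0.50, SE 0.06), Sod2 (0.37, SE 0.06) and Ccl4 (0.31, SE 0.10). Tnf and Ccl4 are secreted cytokines. Of the 13 TRIF- and interferon-dependent genes, 12 rose, led by Ifit1 (0.98, SE 0.08), Isg15 (0.92, SE 0.14), Ifit3 (0.91, SE 0.08) and Usp18 (0.85, SE 0.10), all genes known to be induced by interferon. The list medians were 0.50 and 0.72, against -0.0031 over all genes and 0.20 over the 10 members. Of the 5 tested receptors that share the TIR domain with Toll-like receptors, Il1rl1 was called with a log2 fold change of -0.87 (SE 0.26, adjusted p = 0.022) by limma.

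Against PBS, 2.11% of all genes were called lower with BMDM-NG-exo and 3.08% with BMDM-HG-exo. Of the 13 TRIF- and interferon-dependent genes, 12 fell with BMDM-NG-exo and 12 with BMDM-HG-exo, with list medians of -0.69 and -0.70. The largest changes were Ifit3 (-0.92, SE 0.11), Mx1 (-0.90, SE 0.10), Cxcl10 (-0.85, SE 0.25) and Ifit2 (-0.79, SE 0.08) with BMDM-NG-exo and Cxcl10 (-1.43, SE 0.25), Oasl1 (-1.03, SE 0.19), Ifit3 (-1.02, SE 0.11) and Mx1 (-0.93, SE 0.10) with BMDM-HG-exo. Cxcl10 is a chemokine. Of the 11 MyD88-dependent genes, 4 fell with BMDM-NG-exo, Il1b (-0.90, SE 0.24), Nfkbiz (-0.50, SE 0.06), Tnf (-0.47, SE 0.12) and Zc3h12a (-0.40, SE 0.07). With BMDM-HG-exo 5 fell and 1 rose, and the 4 largest changes were Il1b (-1.13, SE 0.24), Cxcl2 (-0.97, SE 0.22), Zc3h12a (-0.47, SE 0.07) and Nfkbiz (-0.43, SE 0.06). The riser was Ccl3 (0.32), a chemokine, named after its value was seen. Of all 14413 genes, 254 were called higher with BMDM-HG-exo against PBS.

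In the signalling chain between receptor and response the counts stand beside 2.11% of all genes called lower with BMDM-NG-exo and 3.08% with BMDM-HG-exo. There, 5 of 24 kinases, ligases and factors fell with BMDM-NG-exo, led by Irf7 (-0.78), Ikbke (-0.37), Traf3 (-0.23) and Irak2 (-0.19), and 4 with BMDM-HG-exo, Irf7 (-0.89), Ikbke (-0.37), Traf3 (-0.21) and Irf5 (-0.15). Of the inhibitors, 4 of 15 fell with BMDM-NG-exo, Tnip3 (-0.43), Nfkbia (-0.35), Tnfaip3 (-0.33) and Trafd1 (-0.24), and 5 with BMDM-HG-exo, led by Tnip3 (-0.42), Tnfaip3 (-0.40), Nfkbia (-0.32) and Trafd1 (-0.24). The adaptor Pik3ap1 fell in both (-0.18 and -0.20). Among the surface accessory genes, Itgam, an integrin chain of macrophages, fell in both (-0.18 and -0.38) and Ly86, which accompanies Cd180, fell with BMDM-HG-exo (-0.27). Cd180 itself (0.14, adjusted p = 0.0407 by limma) and Cd36 (0.13, adjusted p = 0.0465 by limma) were higher with BMDM-HG-exo and missed the limit on the fold change alone. Of the 19 endosomal genes, none passed with BMDM-NG-exo, where Ctsb (0.14, adjusted p = 0.00103 by limma), Pld3 (0.14, adjusted p = 0.0144 by limma) and Unc93b1 (-0.13, adjusted p = 0.0071 by limma) missed the limit on the fold change alone. With BMDM-HG-exo, Ctsl (-0.21), Cnpy3 (-0.21) and Unc93b1 (-0.20) fell. The limit on the fold change alone was missed there by Hsp90b1 (-0.14, adjusted p = 0.00146 by limma) and Lgmn (-0.14, adjusted p = 0.0115 by limma). In the other direction it was missed by Pld3 (0.13, adjusted p = 0.0235 by limma) and Ctsb (0.09, adjusted p = 0.0477 by limma). Unc93b1 carries endosomal receptors from the endoplasmic reticulum, and Cnpy3 is a chaperone of Toll-like receptors.

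In the contrast of BMDM-HG-exo with BMDM-NG-exo, no gene of the 9 lists was called, against 0.0139% of all genes. The smallest p was that of Itgam (-0.20, adjusted p = 0.118 by limma). When both control groups were combined, Itgam was the called gene among 103, against 0.201% of all genes. Its log2 fold change there was -0.29 (SE 0.05, adjusted p = 0.0125 by limma). The lists were written with earlier results of these data known, and they are described by counts and medians, with no set test. The remaining Toll-like receptors in the table were Tlr3, which uses Ticam1 rather than Myd88, with 390.5 to 603 normalised counts per library, and Tlr5, the flagellin receptor, with 22.6 to 73.3. Neither was called in any comparison, and Tlr5 (-0.58, SE 0.29) was the nearer to a call in high against normal glucose, with adjusted p = 0.198 by limma.

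**Figure D5:**
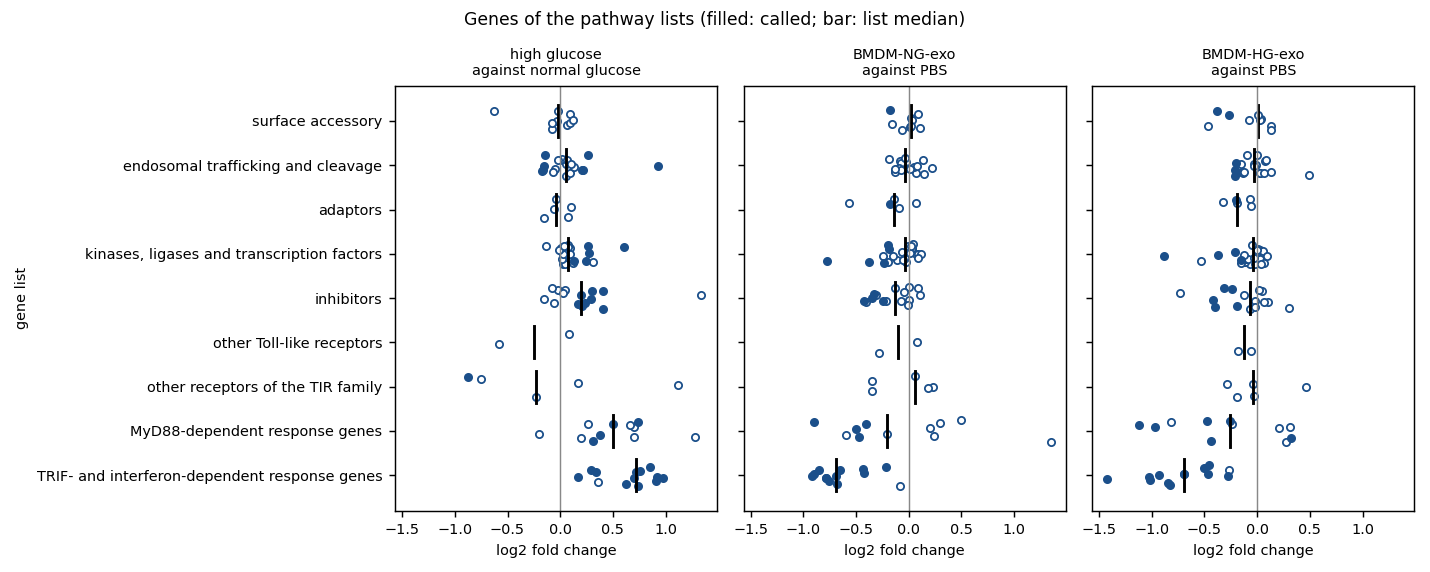
Log2 fold change (x axis) of each tested gene of the 9 pathway lists (y axis) in 3 comparisons; filled points are called genes and bars are list medians. The TRIF- and interferon-dependent genes lie to the right in high glucose, where 12 of 13 are called, and to the left in both exosome comparisons.

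The genes whose pattern over the 20 libraries came closest to each member were found by the root mean square difference of log2 values, each centred on its own mean, over the 11718 genes whose mean reached 50, the other members left out. They were Nadk (0.0867) and Rassf4 (0.0937) for Tlr2, whose own root mean square deviation was 0.21, and Nadk (0.0728) and Nfkbie (0.0765) for Cd14 (0.191). Tlr2 and Cd14 differed from each other by 0.0852, and the smallest difference between members was that of Tlr8 and Tlr13 (0.0656). Tlr1 (0.191) was closest to Tnfaip3 (0.0915) and Limd2 (0.096), and Tlr9 (0.186) to Lgals3bp (0.0657) and Dtx3l (0.0788). For Myd88 (0.101) they were Tcn2 (0.0453) and Adam15 (0.0524), for Tlr4 (0.1) Arhgef6 (0.0408) and Nup153 (0.043), and for Tlr7 (0.107) Lipa (0.05) and Prkcb (0.0507). Tlr8 (0.0629), Tlr13 (0.0346) and Tlr6 (0.141) had closest genes at differences nearer to their own deviation, namely Capza1 (0.0396) and Ube2d3 (0.0419), Nckap1l (0.0338) and Sh3bgrl3 (0.0345), and Cwc27 (0.1) and Zfp111 (0.102). These differences rest on the same libraries and normalisation for all genes, and they carry no test.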

How the data were processed

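RNA was sequenced from 20 BMDM libraries with a stranded total RNA kit. According to the study's methods the authors filtered and trimmed reads as the kit maker advises, with 3 bases cut from read 2, aligned them to GRCm38 with STAR, counted read 2 on the sense strand with featureCounts and normalised with DESeq2. The submitters' processing notes also name cutadapt, without its role, and the annotation used for counting is not given in the sources used here. The deposited table holds 1 normalised count (signal scale, counts divided by size factors) per gene and library. Whole reads were recovered from it (100% whole within 0.01 of a read), giving 34016445 to 56310712 reads per library, and at least 405 reads behind each member value. Of 14456 Ensembl identifiers 14421 were named by GENCODE M21.

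Genes with a mean of at least 10 were tested on log2(normalised count + 1) with limma 3.58.1 in R 4.3.3 (trend of the variance on the mean, Benjamini-Hochberg adjustment over all genes), with the glucose and the exosome libraries fitted apart. The thresholds were an adjusted p of 0.05 and, for exosomes, also an absolute log2 fold change of 0.15. Fold changes are on the log2(value + 1) scale. All 10 members are named, and of each list up to 4 called genes with the largest change, or in part the gene with the smallest p. Members, lists and tests were chosen with earlier results of these data known. The script was tested on simulated data. Alternatives were a pseudocount of 0.5, no filter, TMM factors, quantile normalization, no trend, edgeR 4.0.16 and DESeq2 1.42.0 on the recovered reads, a replicate block and leaving out each library. Exosome libraries of the 3 groups share dates in their titles, and those of the same date were treated here as pairs. Their deviations correlated at -0.0178 to 0.0556 in 12 pairs of the same date (mean 0.012, against -0.00397 in 36 other pairs). What the date marks is not stated. Intervals of fold changes are 95% confidence intervals from limma.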

Additional observations from a re-analysis of the deposited data

Results flagged for a closer look

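A single library stood far from the other 3 of its group for 2 members, both in BMDM-HG-exo library 3. There Tlr6 had 681.3 normalised counts, above the others by 0.911 of the range of the group. Myd88 had 2629 normalised counts, below the others by 0.848 of the range. Without that library the log2 fold change of Myd88 in BMDM-HG-exo against PBS was -0.15 (adjusted p = 0.0971 by limma). Both passed Dixon's 95% critical value for 4 values, and 50 groups of 4 libraries were looked at, of which chance passes about 1 in 20. The cause was not tested.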

How the results depend on the processing

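Of 960 values of a member under another setting, 906 kept their direction and their side of the threshold, 19 lost and 6 gained a call, and 29 turned direction, none of them a called value. Without the trend of the variance, 3 members and 654 genes were called in high against normal glucose (main 6 and 1914), 1 member and 95 genes in BMDM-NG-exo against PBS (4 and 432), 295 genes in BMDM-HG-exo against PBS (698), and 1 gene each in BMDM-HG-exo against BMDM-NG-exo (2) and against the combined controls (29). DESeq2 called 25 genes between the exosome groups, and 136 genes and 1 member against the combined controls, TMM factors and edgeR 1 gene each between the exosome groups, and quantile normalization 19 genes against the combined controls.

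The replicate block by date called 22 genes between the exosome groups and changed no call of a member. In the glucose experiment libraries share only the numbers 1 and 6 (correlations of deviations -0.00138 and 0.0156), and the replicate block called 4 members, without Tlr9 and Myd88 (adjusted p = 0.125 and 0.199 by limma), and 788 genes.

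Leaving out 1 library each, 5 to 6 members and 1370 to 2027 genes were called in high against normal glucose, 3 to 4 members and 292 to 453 genes in BMDM-NG-exo against PBS, 4 to 5 members and 550 to 759 genes in BMDM-HG-exo against PBS, 0 to 2 members and 1 to 204 genes against the combined controls, and 0 members and 1 to 7 genes between the exosome groups. The values that turned direction were small. Tlr8 in high glucose turned to -0.0022 (TMM), -0.0403 (quantile), -0.00431 (edgeR and DESeq2) and lay at -0.0409 to 0.0263 when 1 library was left out, and Tlr6 there at -0.00928 to 0.0838. In BMDM-HG-exo against BMDM-NG-exo, Tlr13 turned to 0.00617 (quantile) and 0.000413 (DESeq2), with a range of -0.0125 to 0.0104 without a library, and Cd14 had one of -0.0517 to 0.0282. The ranges without a library were -0.00794 to 0.0149 for Tlr13 against the combined controls, -0.00336 to 0.0224 for Tlr13 and -0.00897 to 0.0292 for Tlr4 in BMDM-HG-exo against PBS, and -0.000642 to 0.023 for Tlr13 and -0.0348 to 0.0181 for Tlr8 in BMDM-NG-exo against PBS. The causes were not tested.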
